A study of Homo sapiens with 12 samples.

Results

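The 9 genes described here, HLA-B, HLA-C, HLA-E, HLA-F, B2M, TAP1, TAP2, TAPBP and NLRC5, encode parts of the HLA class I antigen presentation pathway. They were chosen by name from the 26475 gene symbols of the count table, and all 9 were found in it. The human lines used were PA-1, which came from a teratocarcinoma of the ovary, and SK-OV-3, which came from an ovarian adenocarcinoma. Cells of each line were given vehicle (DMSO) or 5 µM BAY-850, an inhibitor directed at the bromodomain of the chromatin regulator ATAD2, for 48 h. RNA was sequenced from 3 biological replicates of each of the 4 groups, PA-1 with DMSO, PA-1 with BAY-850, SK-OV-3 with DMSO and SK-OV-3 with BAY-850, giving 12 libraries. PA-1 cells were grown in DMEM and SK-OV-3 cells in RPMI, so the line, its medium and its preparation cannot be told apart in any comparison between lines. All libraries come from single lines in culture with 1 dose and 1 time, and they hold bulk RNA, in which a change in the share of cells that express a gene cannot be told apart from a change in the amount of its RNA per cell.

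Class I molecules show peptides from inside the cell to cytotoxic T cells and natural killer cells. A polymorphic or conserved heavy chain, encoded by an HLA gene, pairs with the invariant light chain beta-2 microglobulin (B2M), and the pair is loaded in the endoplasmic reticulum with peptides that the proteasome has cut. The transporter formed by TAP1 and TAP2 brings these peptides in from the cytosol, tapasin (TAPBP) holds the empty class I molecule at the transporter, and NLRC5 acts in the nucleus as a transactivator of class I promoters. Many genes of the pathway respond to interferons through factors such as IRF1, and tumour cells often carry low levels of them.

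On the GENCODE annotation of GRCh38, the genome build that the submitters' processing notes also name as hg38, 7 of the genes lie on chromosome 6 within the major histocompatibility complex. HLA-F spans chr6:29722775-29738528 on the plus strand, HLA-E spans chr6:30489467-30494205 on the plus strand and HLA-C spans chr6:31268749-31272130 on the minus strand. The annotated span of HLA-B, chr6:31269491-31357188 on the minus strand, holds a long transcript that reaches into HLA-C. TAP2 spans chr6:32821833-32838780, TAP1 spans chr6:32845209-32853978 and TAPBP spans chr6:33299694-33314387, all on the minus strand. B2M lies at chr15:44711487-44718877 and NLRC5 at chr16:56989485-57083531, both on the plus strand.

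The class I promoters carry the sequences through which the pathway is known to be controlled, and they are shown for the heavy chain genes HLA-B and HLA-C and the light chain gene B2M. The RefSeq table for GRCh38.p14 held a promoter for 7 of the 9 genes, HLA-B, HLA-C, HLA-F, B2M, TAP1, TAP2 and TAPBP. Capitals mark matches to 5 motifs, read on both strands in the 200 bases before the RefSeq start: GGGGATT followed by any 2 bases and C (a kappaB-type site), AANNGAAA (a short interferon-response core), GAAA repeated after any 2 bases (a longer form of that core), TGACG (part of a cyclic AMP response element) and CCAAT (the box bound by NF-Y). The window of HLA-B is chr6:31357210-31357379 (minus strand), that of HLA-C is chr6:31272123-31272292 (minus strand) and that of B2M is chr15:44711317-44711486 (plus strand), each from base -200 to base -31. The first and the last lie outside the annotated span of their gene, and the HLA-C window overlaps the first bases of its own.
HLA-B: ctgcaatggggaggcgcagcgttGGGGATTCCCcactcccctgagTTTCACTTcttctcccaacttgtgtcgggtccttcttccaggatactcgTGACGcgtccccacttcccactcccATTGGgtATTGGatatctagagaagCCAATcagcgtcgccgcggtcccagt
HLA-C: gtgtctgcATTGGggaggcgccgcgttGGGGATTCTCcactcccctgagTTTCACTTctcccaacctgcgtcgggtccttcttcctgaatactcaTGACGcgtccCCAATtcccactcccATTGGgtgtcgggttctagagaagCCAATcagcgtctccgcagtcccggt
B2M: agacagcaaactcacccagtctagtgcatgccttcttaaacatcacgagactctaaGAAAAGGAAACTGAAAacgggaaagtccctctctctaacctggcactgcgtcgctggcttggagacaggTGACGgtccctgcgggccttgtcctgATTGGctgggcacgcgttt

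HLA-B and HLA-C share a kappaB-type site followed by an interferon-response core, a TGACG element and CCAAT boxes, and HLA-C has a further CCAAT box (read as ATTGG) before the kappaB-type site. For HLA-F and for the genes of the transporter and tapasin, 30 bases around the interferon-response core are shown. They are chr6:29723268-29723297 (plus strand) for HLA-F, chr6:32853816-32853845 for TAP1, chr6:32838778-32838807 for TAP2 and chr6:33314079-33314108 for TAPBP (all minus strand). All 4 overlap the annotated span of their gene, and the TAP1 site also lies within the span of PSMB9, which runs on the opposite strand.
HLA-F: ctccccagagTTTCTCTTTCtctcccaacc
TAP1: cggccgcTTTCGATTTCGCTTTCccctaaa
TAP2: ctggggAAGCGAAAGCGAAAgctgcccgag
TAPBP: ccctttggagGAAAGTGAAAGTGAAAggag

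The short core AANNGAAA was found in 7 of these 7 promoters and in 16.4% of all 27305 promoters of the same length. The longer form, which always contains a match to the short one, was found in 5 of 7, namely HLA-F, B2M, TAP1, TAP2 and TAPBP, and in 2.44% of all promoters. The kappaB-type letters were found in HLA-B, HLA-C and TAPBP and in 0.648% of all promoters. TGACG was found in HLA-B, HLA-C, B2M and TAP2 (18.9% of all promoters), and CCAAT in HLA-B, HLA-C, HLA-F and B2M (28.9%). The letters were chosen after these promoters had been seen, so the counts beside the shares are not a test of enrichment. A match is a description of the letters and not evidence of binding.

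The libraries held 34544481 to 51840249 counts each, of which ribosomal RNA genes took 7.94% to 16.9%, and 17425 to 18414 genes had a count, except in SK-OV-3 BAY-850 replicate 3, where 15629 did. Levels are given as CPM, that is counts scaled by TMM to a common library total, computed here from the deposited expected counts. Fold changes come from edgeR (quasi-likelihood test), with p-values adjusted by Benjamini-Hochberg over all genes tested and 0.05 as the threshold. Of 8 PA-1 markers (pluripotency genes), 8 were lower in SK-OV-3 with DMSO, and of 6 epithelial markers 5 were higher and KRT18 was lower (background 40.1% higher and 40.2% lower). Several could pass the filter only through the line where they are high, so their direction was set by the filter. Among these were SOX2, LIN28A, LIN28B, L1TD1 and DPPA4, near 0 in SK-OV-3, and KRT7, near 0 in PA-1. A list of 10 leukocyte markers summed to 0.670 to 1.93 CPM in a library, with CD2 and MS4A1 at 0 in all libraries and PTPRC at 0 in those of PA-1. The target of the inhibitor, ATAD2, had a mean level of 41.4 ± 0.250 CPM in PA-1 with DMSO and 36.5 ± 2.43 with BAY-850 (SD, n = 3; log2 fold change -0.18, adjusted p = 0.118 in edgeR), and in SK-OV-3 its level of 79.4 ± 7.91 CPM fell to 56.7 ± 2.33 (log2 fold change -0.47, adjusted p = 0.00140 in edgeR).

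The level from which each line starts was compared first. SK-OV-3 cells with DMSO had more RNA of 9 of the 9 class I genes than PA-1 cells with DMSO (edgeR, adjusted p under the threshold for each), while 40.1% of 16070 genes were called higher and 40.2% lower, so the lines differ in most genes. The median log2 difference was 3.32 over the class I genes and 0.0019 over all genes tested. In no class I gene did the DMSO libraries of the lines overlap (background 41.1% higher and 41.2% lower). HLA-F could pass the filter only through SK-OV-3, so its direction in both counts was set by the filter.

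Among the heavy chains, HLA-B measured 45.1, 40.7 and 40.7 CPM in the PA-1 DMSO libraries and 516, 468 and 466 CPM in the SK-OV-3 DMSO libraries, a log2 difference of 3.52 ± 0.0687 (SE; edgeR adjusted p = 1.54e-13). HLA-C, which presents peptides and is a ligand of inhibitory receptors on natural killer cells, measured 150, 153 and 158 CPM against 449, 404 and 417 CPM, a log2 difference of 1.46 ± 0.0565 (edgeR adjusted p = 9.04e-11). HLA-E, a conserved heavy chain read by the CD94 and NKG2 receptors of natural killer cells, measured 65.6, 65.0 and 64.4 CPM against 323, 303 and 291 CPM, a log2 difference of 2.23 ± 0.0579 (edgeR adjusted p = 2.01e-12). HLA-C had the smallest difference of the 3, and its level in PA-1 was also the highest of the 3 there. The HLA alleles of the lines are not given in the sources used here, and hg38 is the only reference named. How well the reads of each line match the reference HLA genes was not tested, which limits differences between lines and ratios among these genes.

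HLA-F, a non-classical heavy chain, was near absent from PA-1. It measured 0.0289, 0 and 0.0849 CPM in the PA-1 DMSO libraries, 0 CPM in all 3 PA-1 BAY-850 libraries, and 98.6, 89.4 and 88.7 CPM in the SK-OV-3 DMSO libraries. With DMSO this is 4.01 expected counts against 10722, a ratio of 2732 with an exact 95% interval of 1067 to 10029, which covers counting error only. The value also turns on single libraries: the fitted log2 difference, which depends on the prior count, was 11.24 with all libraries, 12.52 without PA-1 DMSO replicate 3 and 10.57 without PA-1 DMSO replicate 2. With BAY-850 the 0 counts in PA-1 allow a level of up to 0.0244 CPM (3 counts over the group), and HLA-F was at least 4918-fold higher in SK-OV-3. Its antisense neighbour HLA-F-AS1, at chr6:29726601-29749049 on the minus strand, had the same pattern, with a mean of 0.0289 CPM in PA-1 DMSO, 0 CPM in PA-1 BAY-850 and 4.14 ± 0.654 CPM in SK-OV-3 DMSO. The counting's strand setting is not given in the sources used here, so reads of the pair where they overlap cannot be told apart.

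The light chain gene B2M measured 163, 156 and 137 CPM in PA-1 DMSO and 1582, 1505 and 1471 CPM in SK-OV-3 DMSO, a log2 difference of 3.32 ± 0.0701 (edgeR adjusted p = 3.08e-13). The transporter subunits differed unequally between the lines. TAP1 measured 6.74, 6.03 and 5.88 CPM against 60.5, 63.3 and 66.4 CPM, a log2 difference of 3.35 ± 0.0856 (edgeR adjusted p = 1.77e-12), and TAP2 measured 22.3, 24.4 and 23.9 CPM against 68.3, 63.1 and 68.5 CPM, a log2 difference of 1.499 ± 0.0697 (edgeR adjusted p = 5.35e-10). TAPBP measured 20.7, 20.7 and 24.4 CPM against 84.7, 81.2 and 79.2 CPM, a log2 difference of 1.90 ± 0.0771 (edgeR adjusted p = 1.44e-10). The transactivator NLRC5 had 0.723, 0.488 and 0.679 CPM in PA-1 DMSO, from 71 counts in all, and 28.2, 29.3 and 28.4 CPM in SK-OV-3 DMSO, a log2 difference of 5.52 ± 0.152 (edgeR adjusted p = 3.56e-12). After HLA-F, NLRC5 had the largest difference of the 9 genes.

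**Figure D1:**
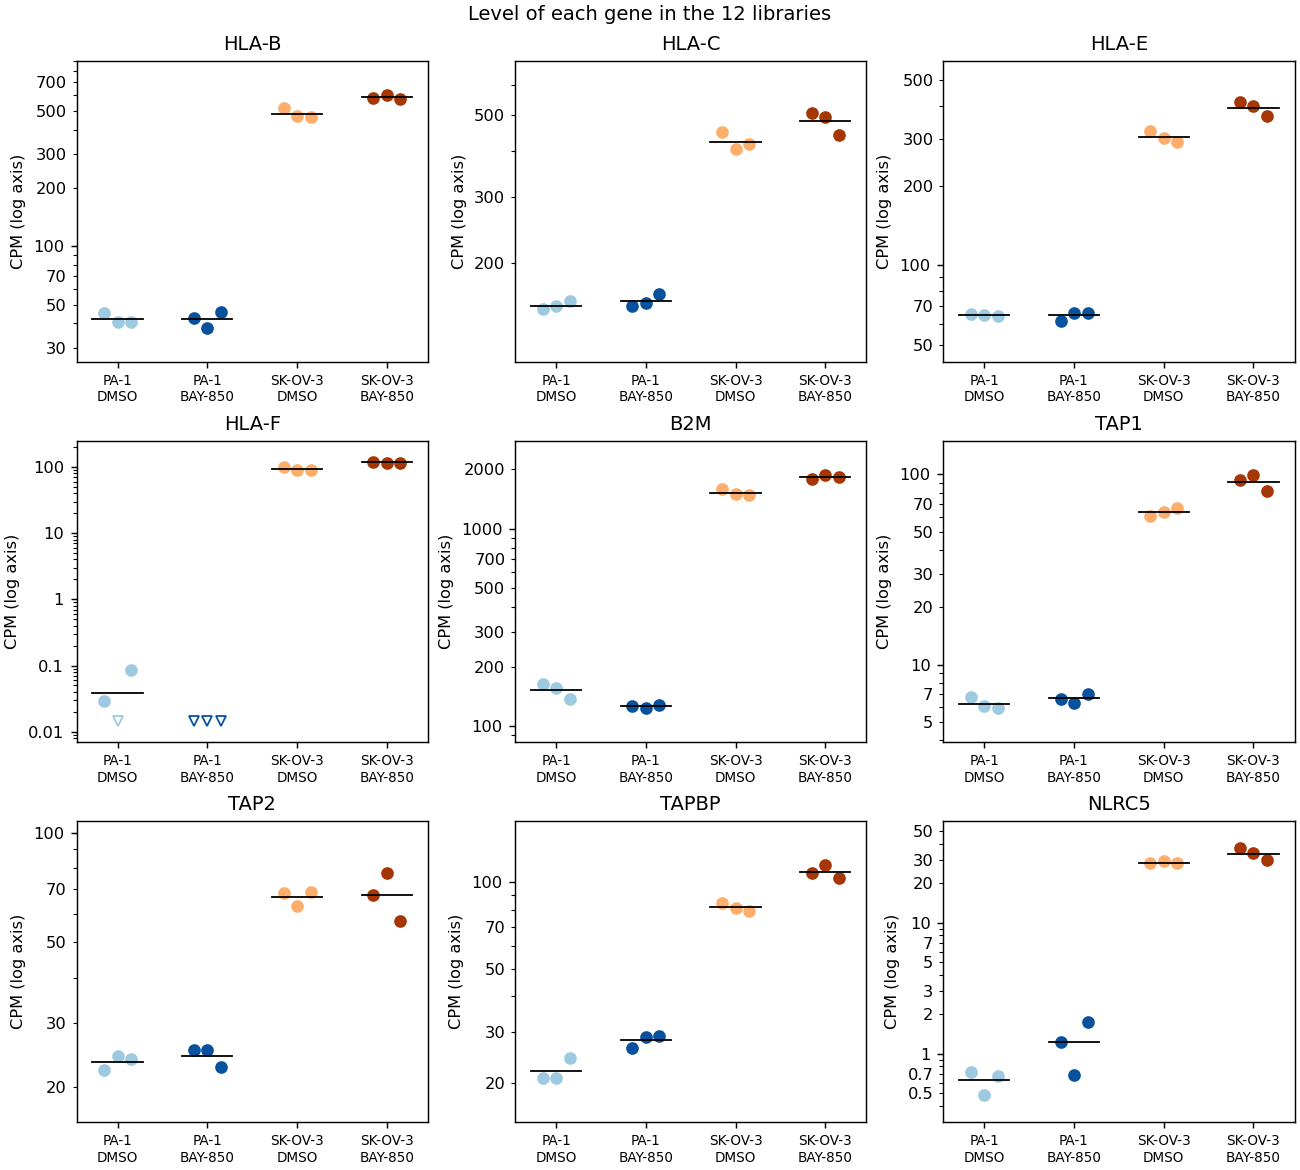
Each panel plots 1 gene in CPM on a log axis for the 12 libraries (points, 3 per group, with the group mean as a line; open triangles mark libraries at 0, drawn at an arbitrary height). In all 9 panels the 6 SK-OV-3 libraries sit above the 6 PA-1 libraries.

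Levels of different genes were compared only per length, as CPM per kilobase of annotated exon. In PA-1 with DMSO the order was HLA-C at 61.3 ± 1.52, B2M at 25.0 ± 2.21, HLA-E at 21.8 ± 0.200, HLA-B at 13.8 ± 0.837, TAPBP at 4.34 ± 0.415, TAP2 at 3.68 ± 0.175, TAP1 at 1.29 ± 0.0949, NLRC5 at 0.0509 ± 0.0101 and HLA-F at 0.00874 ± 0.00994 (mean CPM per kilobase, SD, n = 3). In SK-OV-3 with DMSO it was B2M at 250 ± 9.31, HLA-C at 169 ± 9.27, HLA-B at 158 ± 9.33, HLA-E at 103 ± 5.39, HLA-F at 21.2 ± 1.27, TAPBP at 16.2 ± 0.553, TAP1 at 13.2 ± 0.618, TAP2 at 10.4 ± 0.480 and NLRC5 at 2.31 ± 0.0453. HLA-B lay below HLA-C in all 3 SK-OV-3 DMSO libraries, with a ratio of 0.918 to 0.951. The order and the gaps depend on the length used. Over the longest annotated transcript, HLA-B (312) passed HLA-C (225) in SK-OV-3 with DMSO. In PA-1 with DMSO, HLA-B (27.2) passed HLA-E (25.0) over that length. There B2M was at 63.2 and HLA-C at 81.7, much closer than over all exons, and B2M was at 632 in SK-OV-3 with DMSO. Shorter transcripts were not tried, so the lead of HLA-C over B2M in PA-1 holds only for these lengths.

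**Figure D2:**
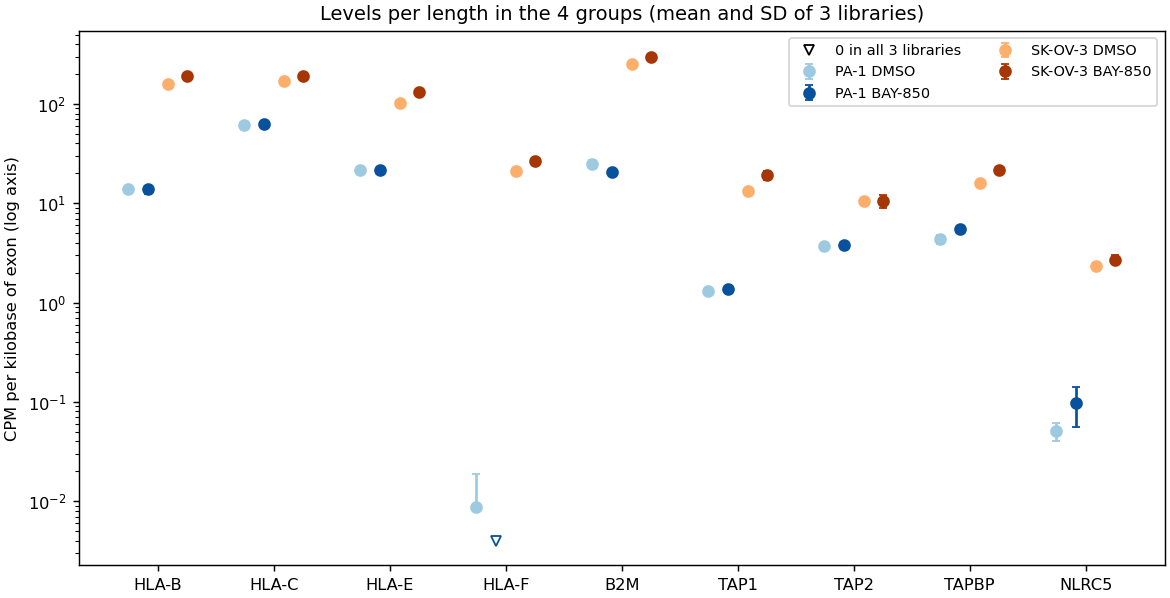
The plot gives the mean level of each gene per kilobase of annotated exon (log axis, CPM per kilobase) in the 4 groups, with the SD of 3 libraries as bars, drawn upward only for HLA-F in PA-1 with DMSO, where the SD exceeds the mean. By this length HLA-C leads in PA-1 with DMSO at 61.3 and B2M leads in SK-OV-3 with DMSO at 250. The open triangle marks HLA-F at 0 in PA-1 with BAY-850 at an arbitrary height.

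Which class I genes responded to BAY-850 in SK-OV-3 was asked next. In that line 7 of the 9 genes rose and 0 fell, while 10.8% of 15348 genes were called higher and 9.56% lower (edgeR's quasi-likelihood test). The increases were small, at most 1.46-fold, and the median log2 fold change was 0.30 over the class I genes and -0.0091 over all genes tested. The 7 genes were HLA-B, HLA-C, HLA-E, HLA-F, B2M, TAP1 and TAPBP, and the exceptions were TAP2 and NLRC5. In 7 genes every BAY-850 library lay above every DMSO library (background 18.1% higher and 20.5% lower), and these were the called genes other than HLA-C, together with NLRC5. At an unadjusted p under 0.05, 8 genes were higher and 0 lower, and DESeq2 called 7 higher and 0 lower. Over the same libraries the 6 epithelial markers summed to 4307 to 4613 CPM with DMSO and 3180 to 3660 CPM with BAY-850, and the 10 leukocyte markers to at most 1.06 CPM. Of the epithelial markers ERBB2 (2416 to 1782 CPM), KRT8 and KRT19 fell, PAX8 rose (223 to 324 CPM), and KRT7 and KRT18 did not pass. The 8 PA-1 markers summed to 36.3 to 40.8 CPM with DMSO and 78.6 to 81.6 CPM with BAY-850, and of these DNMT3B rose from 31.5 to 70.6 CPM. The part of these marker changes in the results was not tested.

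Of the 4 heavy chain genes, HLA-B, HLA-E and HLA-F rose without overlap between the groups. HLA-B went from 516, 468 and 466 CPM with DMSO to 584, 604 and 574 CPM with the inhibitor, a log2 fold change of 0.30 ± 0.0513 (SE; edgeR adjusted p = 0.00207). HLA-E went from 323, 303 and 291 CPM to 414, 402 and 367 CPM, a log2 fold change of 0.38 ± 0.0560 (edgeR adjusted p = 7.03e-04). HLA-F went from 98.6, 89.4 and 88.7 CPM to 120, 115 and 116 CPM, a log2 fold change of 0.35 ± 0.0607 (edgeR adjusted p = 0.00189). In each of the 3 the lowest treated library lay above the highest vehicle library, and their calls held when any 1 library was left out and under all other settings. HLA-F-AS1, the antisense neighbour of HLA-F, rose as well, from 4.53, 3.39 and 4.51 CPM to 5.76, 6.30 and 8.45 CPM (log2 fold change 0.74 ± 0.211, edgeR adjusted p = 0.0292).

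HLA-C had the smallest called increase. It measured 449, 404 and 417 CPM with DMSO and 505, 495 and 440 CPM with the inhibitor, a log2 fold change of 0.19 ± 0.0576 (edgeR adjusted p = 0.0354). The groups overlap, since BAY-850 replicate 3 was below DMSO replicate 1. The call was lost when DMSO replicate 2, DMSO replicate 3, BAY-850 replicate 1 or BAY-850 replicate 2 was left out, with adjusted p = 0.116 to 0.168 in edgeR. RSEM divides reads that fit several genes, and the counts of HLA-B, HLA-C and HLA-E were not whole in 12 of 12 libraries, so their levels are estimates of that division. Of the 50-base words of the transcript examined, 2.54% in HLA-B, 6.71% in HLA-C and 5.13% in HLA-E also occur in another gene.

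B2M rose with the heavy chains, from 1582, 1505 and 1471 CPM to 1778, 1863 and 1835 CPM, a log2 fold change of 0.28 ± 0.0435 (edgeR adjusted p = 0.00107), with no overlap. The summed level of HLA-B, HLA-C and HLA-E per length, divided by that of B2M, was 1.72 ± 0.0372 with DMSO and 1.72 ± 0.102 with BAY-850 (SD, n = 3; two-sided exact permutation test, p = 1). Within the heavy chains, the ratio of HLA-E to HLA-C went from 0.609 ± 0.0211 to 0.693 ± 0.00950 without overlap (exact permutation test, p = 0.1), whereas the libraries overlapped for the ratio of HLA-B to HLA-C. For 3 libraries against 3 this test cannot give a p below 0.1, and over the 8 ratio comparisons the adjusted p of those at 0.1 was 0.267.

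Of the transporter subunits, TAP1 passed the threshold and TAP2 did not. TAP1 had the largest increase of the 9 genes in SK-OV-3, from 60.5, 63.3 and 66.4 CPM to 93.6, 99.8 and 81.6 CPM, a log2 fold change of 0.54 ± 0.0726 (edgeR adjusted p = 3.49e-04). TAP2 measured 68.3, 63.1 and 68.5 CPM with DMSO and 67.3, 77.7 and 57.4 CPM with the inhibitor, a log2 fold change of 0.028 with a 95% interval of -0.15 to 0.21 (edgeR adjusted p = 0.869). The TAP1 groups are apart, whereas the treated TAP2 libraries lie on both sides of the vehicle ones. The ratio of TAP1 to TAP2 per length went from 1.18, 1.33 and 1.29 with DMSO to 1.85, 1.71 and 1.89 with BAY-850, a log2 change of 0.52, without overlap (exact permutation test, p = 0.1, adjusted 0.267). Of the 50-base words of the TAP2 transcript, 35.8% also occur in another gene, against 1.07% for TAP1, and the counts of both genes were not whole in 11 of 12 libraries.

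**Figure D3:**
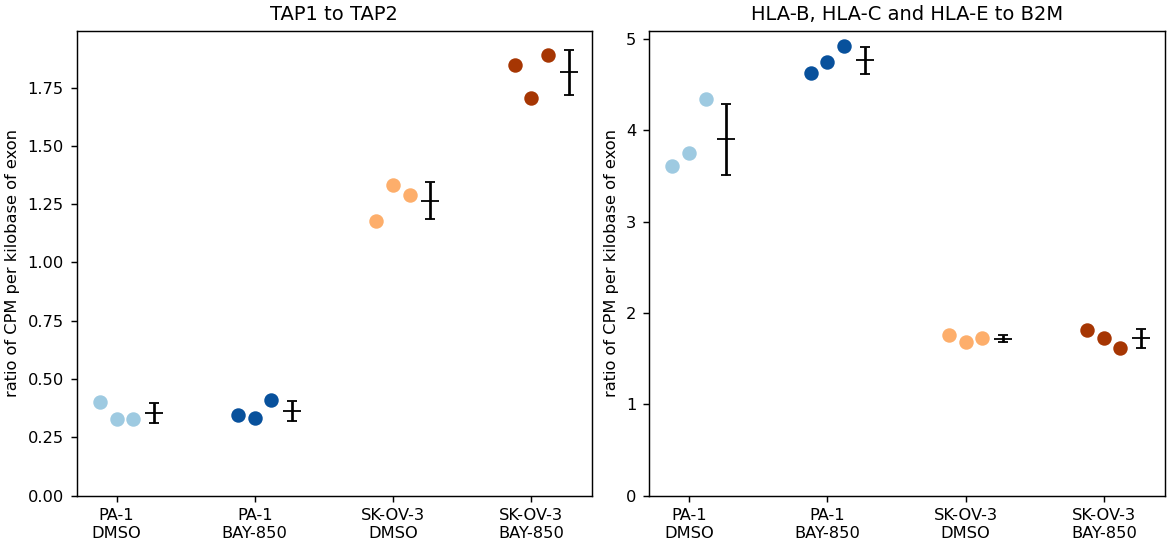
The panels plot the ratio of TAP1 to TAP2 (left) and of summed HLA-B, HLA-C and HLA-E to B2M (right), each from CPM per kilobase, for the 12 libraries (points) with mean and SD beside them. TAP1 to TAP2 lies at 1.18 to 1.33 in SK-OV-3 with DMSO and at 1.71 to 1.89 with BAY-850, and the ratio to B2M lies at 3.61 to 4.35 in PA-1 with DMSO and at 4.63 to 4.92 with BAY-850.

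PSMB9, an immunoproteasome subunit whose gene is the neighbour of TAP1 and overlaps its annotated span on the opposite strand, rose from 24.4, 22.6 and 22.9 CPM to 37.2, 35.0 and 34.8 CPM in SK-OV-3 (log2 fold change 0.62 ± 0.0782, edgeR adjusted p = 2.28e-04). TAPBP rose from 84.7, 81.2 and 79.2 CPM to 107, 115 and 103 CPM, a log2 fold change of 0.42 ± 0.0589 (edgeR adjusted p = 4.67e-04), with no overlap. Its counts were whole in every library.

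NLRC5 measured 28.2, 29.3 and 28.4 CPM with DMSO and 36.7, 34.03 and 29.99 CPM with BAY-850. The groups do not overlap, but the log2 fold change of 0.24 ± 0.0846 did not pass the threshold (edgeR adjusted p = 0.0671). It passed when the treated library with few genes detected, replicate 3, was left out (log2 fold change 0.31, edgeR adjusted p = 0.0118) and when each library's trend on GC content was removed (0.25, edgeR adjusted p = 0.0422).

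In PA-1, where HLA-F was too low to be tested, 1 of the 8 genes tested rose and 1 fell, while 4.65% of 15212 genes were called higher and 2.48% lower (edgeR). The median log2 fold change was 0.050 over the class I genes and -0.0019 over all genes tested. B2M fell and TAPBP rose, and for these genes alone the groups did not overlap (background 14.1% higher and 13.3% lower).

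B2M measured 163, 156 and 137 CPM with DMSO and 126, 124 and 127 CPM with the inhibitor, a log2 fold change of -0.27 ± 0.0651 (edgeR adjusted p = 0.0222). TAPBP measured 20.7, 20.7 and 24.4 CPM with DMSO and 26.5, 28.8 and 29.02 CPM with the inhibitor, a log2 fold change of 0.36 ± 0.0860 (edgeR adjusted p = 0.0219). Log2 fold changes in PA-1 moved with the GC content of a gene's transcript (Spearman's rho 0.39 across 13402 coding genes, which are not independent), and the median was -0.13 in the 10% of genes lowest in GC content and 0.12 in the 10% highest in it. B2M lies at percentile 18.1 of GC content and TAPBP at 76.8. With each library's trend on GC content removed, B2M was at -0.20 (edgeR adjusted p = 0.0993) and TAPBP at 0.27 (edgeR adjusted p = 0.0784), so neither passed. Both calls were also lost without DMSO replicate 1, DMSO replicate 2 or BAY-850 replicate 2, that of B2M without BAY-850 replicate 1, and that of TAPBP under scaling by library size only (edgeR adjusted p = 0.0972).

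The heavy chain genes of PA-1 showed no called change. HLA-B measured 45.1, 40.7 and 40.7 CPM with DMSO and 42.4, 37.9 and 45.6 CPM with the inhibitor, a log2 fold change of -0.0030 (95% interval -0.15 to 0.15). HLA-C measured 150, 153 and 158 CPM and then 153, 156 and 165 CPM, a log2 fold change of 0.044 (95% interval -0.065 to 0.15). HLA-E measured 65.6, 65.0 and 64.4 CPM and then 61.7, 65.7 and 66.1 CPM, a log2 fold change of -0.0091 (95% interval -0.12 to 0.11). The groups overlap in all 3 genes. Each interval ends below the estimate for the same gene in SK-OV-3, but this leaves out the error of that estimate. The direct comparison is the interaction given below, which passed the threshold for HLA-E and not for HLA-B or HLA-C. The ratio of summed HLA-B, HLA-C and HLA-E to B2M per length went from 3.61, 3.75 and 4.35 to 4.63, 4.75 and 4.92 without overlap (exact permutation test, p = 0.1, adjusted 0.267).

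In PA-1, TAP1 measured 6.74, 6.03 and 5.88 CPM with DMSO and 6.60, 6.30 and 7.03 CPM with the inhibitor, a log2 fold change of 0.097 (95% interval -0.17 to 0.37). TAP2 measured 22.3, 24.4 and 23.9 CPM and then 25.3, 25.3 and 22.8 CPM, a log2 fold change of 0.056 (95% interval -0.10 to 0.21), and the ratio of TAP1 to TAP2 was 0.353 ± 0.0429 with DMSO and 0.363 ± 0.0418 with BAY-850 (SD, n = 3; exact permutation test, p = 0.5). NLRC5 measured 0.723, 0.488 and 0.679 CPM and then 1.24, 0.686 and 1.74 CPM, from 71 and 144 counts, a log2 fold change of 0.96 with an interval of 0.13 to 1.78 before adjustment (edgeR adjusted p = 0.180). Its groups overlap through BAY-850 replicate 2, and the treated libraries spread widely.

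**Figure D4:**
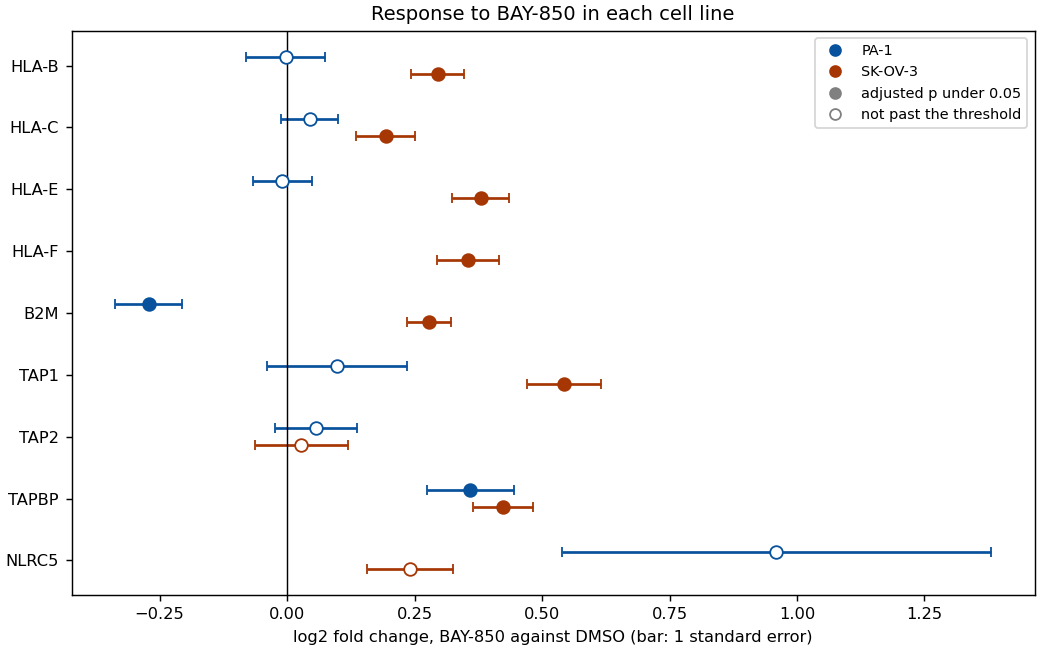
The plot gives the log2 fold change of each gene, BAY-850 against DMSO, with 1 standard error, in PA-1 (blue) and SK-OV-3 (brown); filled points passed an adjusted p of 0.05. In SK-OV-3, 7 points are filled, all above 0, whereas in PA-1 B2M at -0.27 and TAPBP at 0.36 are filled, and HLA-F in PA-1 is not drawn because it was not tested.

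The difference between the responses of the lines was tested as an interaction. It passed the threshold, with a larger response in SK-OV-3, for 3 of the 9 genes, HLA-E, B2M and TAP1, and in the other direction for 0, while 6.7% of 16830 genes were called in the first direction and 7.77% in the other (edgeR). Of the called differences that of B2M was the largest, 0.54 ± 0.0797 on the log2 scale (edgeR adjusted p = 3.81e-04), and it was the gene whose called changes had opposite signs in the lines. Its call within PA-1 was lost with the GC trend removed, as given above. HLA-E differed by 0.38 ± 0.0798 (edgeR adjusted p = 0.00519). Both of these interaction calls held under all other settings and when any 1 library was left out.

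TAP1 differed by 0.44 ± 0.127 (edgeR adjusted p = 0.0313), and this call was lost with limma-voom (adjusted p = 0.195), with the replicate number as a block (edgeR adjusted p = 0.0701) and without PA-1 DMSO replicate 1 or 2, PA-1 BAY-850 replicate 1 or 2, SK-OV-3 DMSO replicate 1 or SK-OV-3 BAY-850 replicate 2 (adjusted p up to 0.0916 in edgeR). HLA-B differed by 0.29 ± 0.0947 and missed the threshold (edgeR adjusted p = 0.0549), but passed it under 7 of the 9 other settings and in 2 of the 12 fits that left out 1 library (adjusted p of 0.0229 to 0.146 in edgeR). HLA-C (0.14), TAP2 (-0.038), TAPBP (0.052, 95% interval -0.15 to 0.25) and NLRC5 (-0.74, interval -1.38 to -0.10 before adjustment, edgeR adjusted p = 0.149) did not pass. For HLA-F no difference of responses can be read, since its counts in PA-1 were at or near 0.

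The other genes of the pathway were counted from lists, against the same backgrounds. In SK-OV-3, 3 of the 5 genes of the immunoproteasome and its activator rose and 0 fell. These were PSMB9, given above, and the activator subunits PSME1, from 116 ± 8.12 to 161 ± 2.72 CPM (log2 fold change 0.49 ± 0.0623, edgeR adjusted p = 2.55e-04), and PSME2, from 45.1 ± 3.39 to 55.9 ± 3.14 CPM (0.32 ± 0.0805, edgeR adjusted p = 0.0154). PSMB8 (0.091) and PSMB10 (0.061) did not pass. Of the 3 catalytic subunits of the constitutive proteasome, 0 rose and PSMB5 fell by 0.25 on the log2 scale (edgeR adjusted p = 0.0256).

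Of 6 genes of peptide loading and trimming in SK-OV-3, 0 rose and 2 fell. They were the chaperone calreticulin, CALR, which went from 764 ± 31.2 to 640.3 ± 7.45 CPM (log2 fold change -0.24 ± 0.0460, edgeR adjusted p = 0.00354), and the oxidoreductase PDIA3 (ERp57), which went from 477 ± 13.5 to 414 ± 6.80 CPM (-0.19 ± 0.0453, edgeR adjusted p = 0.0113). Both serve glycoprotein folding in general as well as class I loading. The trimming peptidase ERAP2 was at -0.22 (edgeR adjusted p = 0.0512). In PA-1, 1 of 6 rose, the chaperone CANX (0.20 ± 0.0540, edgeR adjusted p = 0.0426), and none of the 4 tested genes of the immunoproteasome list or the 3 constitutive subunits passed (0 also at an unadjusted p under 0.05 in edgeR, and 0 in DESeq2).

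Of 12 tested regulators of class I promoters, 3 rose and 0 fell in SK-OV-3. IRF1, which binds the interferon-response core, went from 29.1, 28.9 and 30.1 CPM to 44.5, 44.0 and 41.1 CPM (0.57 ± 0.0695, edgeR adjusted p = 1.93e-04). The treated libraries of IRF1 lie well apart from the vehicle ones. RELA, a subunit of NF-kappaB, rose by 0.24 (edgeR adjusted p = 0.00985) and IRF2 by 0.39 (edgeR adjusted p = 0.0272) on the log2 scale. In PA-1, RELA rose (0.48 ± 0.0749, edgeR adjusted p = 0.00134), NFYB, a subunit of the CCAAT-binding factor NF-Y, fell (-0.27 ± 0.0604, edgeR adjusted p = 0.0146), and IRF1 was at 0.16 (edgeR adjusted p = 0.251). The response of IRF1 was larger in SK-OV-3 by 0.40 ± 0.0974 (interaction, edgeR adjusted p = 0.0126). Whether the PA-1 calls of RELA, NFYB and CANX hold with the trend on GC content removed was not tested.

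Among 9 class I-like genes, 2 rose and 0 fell in SK-OV-3: ULBP1, a ligand of the NKG2D receptor, from 1.76 ± 0.319 to 5.62 ± 1.35 CPM (log2 fold change 1.70 ± 0.260, edgeR adjusted p = 9.15e-04), and FCGRT, the heavy chain of the neonatal Fc receptor, from 1.27 ± 0.318 to 2.71 ± 0.137 CPM (1.11 ± 0.318, edgeR adjusted p = 0.0306). None of the 7 tested in PA-1 passed in edgeR (1 was lower at an unadjusted p under 0.05, and DESeq2 called 0). Of 11 genes for class II molecules and the invariant chain, 3 were high enough to be tested in SK-OV-3 and 5 in PA-1, and none passed in either line in edgeR (at an unadjusted p under 0.05, 1 was higher in SK-OV-3 and 1 lower in PA-1, and DESeq2 called 0). At the start, with DMSO, the 5 genes of this list that were tested were lower in SK-OV-3, and the rest were too low to be tested. HLA-DOA (1.37 CPM) and HLA-DPB1 (1.77 CPM in PA-1) were at 0 in SK-OV-3. These 2 genes could pass the filter only through PA-1, so their direction was set by the filter. The invariant chain gene CD74 had 24.4 ± 1.56 CPM in PA-1 and 0.988 ± 0.318 CPM in SK-OV-3.

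**Figure D5:**
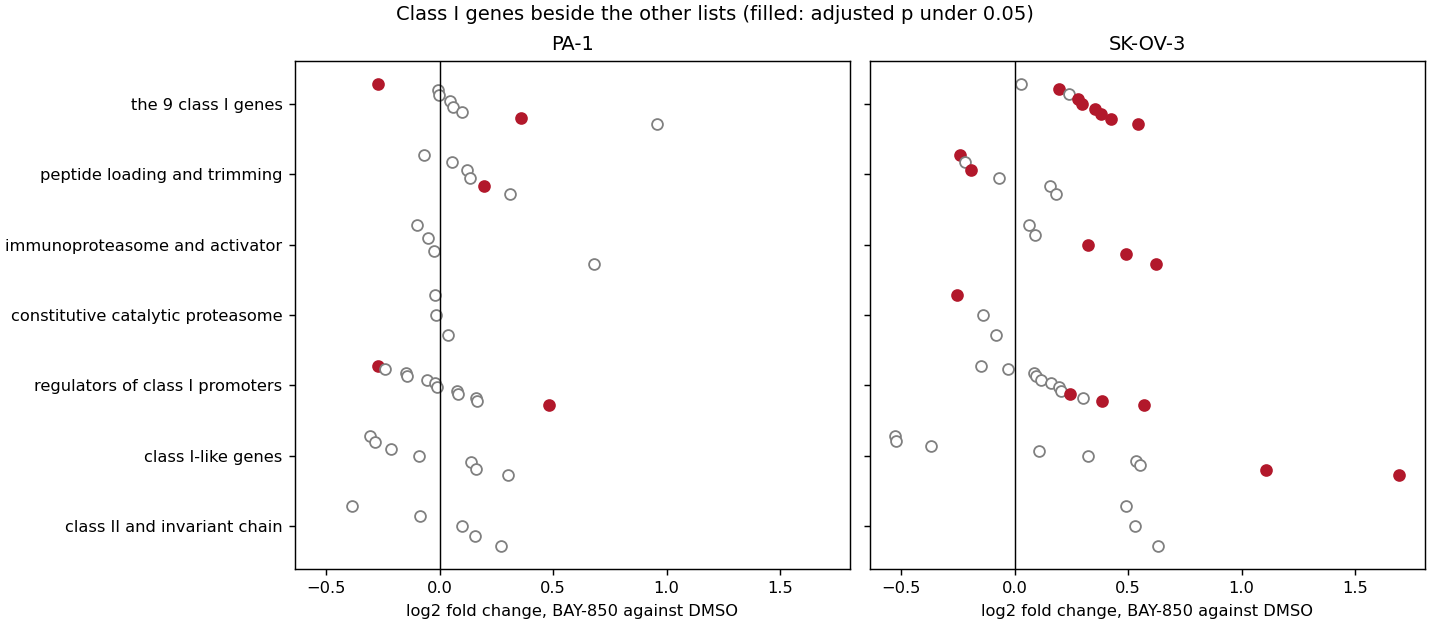
Points are genes tested in PA-1 (left) and SK-OV-3 (right), by list, at their log2 fold change with BAY-850; filled points passed an adjusted p of 0.05. In SK-OV-3, 7 of 9 class I genes and 3 of 5 immunoproteasome genes are filled above 0, and 2 of 6 loading genes are filled below 0.

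Over the 12 libraries, the genes whose log2 CPM most resembled the mean of the 9 standardized profiles, among 14084 genes compared, were C7orf13, PARP12, CD177, WISP2 and RSAD2, all with r rounding to 0.999. All 5 were at 0 in PA-1 with DMSO and measurable in SK-OV-3, for example PARP12 at 21.8 CPM with DMSO and 32.4 with BAY-850, so the likeness is carried by the gap between the lines.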

How the data were processed

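RNA was sequenced from 12 libraries on an Illumina HiSeq 2500. The methods text describes oligo-dT selection and strand-specific libraries, whereas the series' design text names depletion of ribosomal RNA. Expected counts for each gene symbol were deposited by the authors; RSEM estimates them by dividing reads that fit several genes, with no scaling between libraries. Bowtie2 2.1.0, RSEM 1.2.15 and hg38 are named in the submitters' processing notes, and the annotation and strand setting are not given in the sources used here.

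Expected counts were rounded. Groups and replicates came from the sample labels. Genes were kept by edgeR's filter with treatment as the group, scaled by TMM and tested by edgeR's quasi-likelihood test (edgeR 4.0.16, R 4.3.3) within each line, between the DMSO groups, and as a line by treatment interaction over all libraries, with Benjamini-Hochberg adjustment. The whole table was fitted and HLA-F failed the filter in PA-1. The standard error was the size of a log2 fold change over the square root of F. Ratios within a library were tested by exact permutation. Replicates of a group differed beyond sampling noise (chi-square of 5.05 to 72.7 per degree of freedom), so each was counted as 1 sample. P-values measure the spread between these samples. The biological coefficient of variation came to 0.0916 (PA-1) and 0.144 (SK-OV-3).

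The named genes were the 9 genes, the 2 to 4 genes of each pathway list with the smallest adjusted p, PSMB9, HLA-F-AS1, ATAD2 and the 5 most alike genes; other genes named from the lists (PSMB8, PSMB10, ERAP2, CD74 and, in PA-1, IRF1) and the marker genes named were added after their values were seen. The genes and lists were chosen with earlier results of these data known, and the motif letters after the promoters had been seen. One gene of the regulator list is not reported here. GENCODE v29 lengths and GC contents (longest transcript) matched 23900 symbols, and 2575 symbols were not matched. Alternatives were RLE factors, library size only, library size without ribosomal RNA genes, no filter, at least 10 counts in every library, DESeq2 1.42.0, limma-voom (limma 3.58.1), removal of the GC trend (loess span 0.5), the replicate number as a block, all 12 libraries in one fit, and leaving out each library in turn. Counts were also simulated with the same spread for every gene and line, not the measured spread, so recovery in the real libraries may differ. For PA-1 (15213 genes, 5 false calls) the test found 45 of 100 genes changed by a log2 of 0.5 and 100 of 100 changed by 1. For SK-OV-3 (15393 genes, 6 false calls) it found 45 and 99 of 100. For the interaction (16390 genes, 3 false calls) it found 16 and 80 of 100.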

Additional observations from a re-analysis of the deposited data

Results flagged for a closer look

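The responses of HLA-E, B2M and TAP1 to BAY-850 differed between the lines by the interaction test, with the response in SK-OV-3 above that in PA-1. HLA-E differed by 0.38 on the log2 scale, with no called change in PA-1 and an increase in 3 of 3 SK-OV-3 libraries over every vehicle library. B2M differed by 0.54, with 3 of 3 treated libraries below every vehicle library in PA-1 and 3 of 3 above in SK-OV-3. In PA-1 its call was lost with the GC trend removed (-0.20, edgeR adjusted p = 0.0993). That call held in 2 of the 6 fits that left out 1 library. TAP1 differed by 0.44, with overlapping libraries in PA-1 and 3 of 3 above in SK-OV-3. Its interaction call held in 7 of 9 other settings and in 6 of 12 fits that left out 1 library. Over all genes tested, libraries did not overlap in 14.1% (higher) and 13.3% (lower) in PA-1. In SK-OV-3 these shares were 18.1% and 20.5%.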

How the results depend on the processing

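Of 602 alternative values of the log2 fold changes, 555 kept their direction and their side of the threshold, 22 lost the call, 14 gained one and 11 changed sign. In PA-1, 0 genes were higher with library size only and with the GC trend removed, and 0 were lower with the GC trend removed. Leaving out 1 library gave 0 to 1 higher and 0 to 1 lower in PA-1. For the interaction, 5 genes were higher with the GC trend removed (HLA-B and HLA-C added), and leaving out 1 library gave 0 to 1 lower (NLRC5, adjusted p = 0.0203 in edgeR without PA-1 BAY-850 replicate 2). The counts of genes called in SK-OV-3 and between the DMSO groups stayed within 1.5 times of the main counts. Sign changes were found only in values near 0: HLA-B in PA-1 with no filter (0.0011), HLA-C in PA-1 with the GC trend removed (-0.080), and TAP2 for the interaction with library size only (0.0081) and the GC trend removed (0.065). Leaving out 1 library, HLA-B in PA-1 ranged from -0.067 to 0.067, HLA-E in PA-1 from -0.028 to 0.022, TAP2 in SK-OV-3 from -0.077 to 0.12, TAP2 for the interaction from -0.14 to 0.067 and TAPBP for the interaction from -0.024 to 0.093. The cause was not tested. With the replicate block, TAP1 for the interaction was 0.43 (adjusted p = 0.0701 in edgeR) and no other call of the 9 genes changed. Libraries of the same number did not deviate together (correlations of -0.048 to 0.033). With 3 libraries in a group this shows no pairing by number but cannot exclude it. Over all genes tested in PA-1, 707 were higher and 378 lower, against 235 and 231 with library size only, 379 and 166 with the GC trend removed and 1011 and 726 with DESeq2; the GC trend removed gave 2028 and 1052 in SK-OV-3 (1662 and 1468 without) and 1526 and 899 for the interaction (1128 and 1307 without, 1062 and 773 with library size only). Depth limits HLA-F in PA-1, with 4.01 counts in the DMSO group.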
